A study of Mus musculus with 7 samples.

Results

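A set of 10 immediate early genes was followed through every library and annotated cluster of a single-cell RNA study of mouse epidermis. These genes, chosen by symbol, were the Fos family members Fos and Fosb, the Jun family members Jun, Junb and Jund, the transcription factor genes Egr1 and Atf3, the early response genes Ier2 and Ier3, and Dusp1. All 10 were listed among the 26383 genes of the keratinocyte table and the 23737 genes of the host table, and 7 of them among the 15155 genes of the donor table. Donor levels of Jun, Jund and Ier2 were not analysed here.

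The cells came from the ear epidermis of male CD45.2 C57BL/6 mice that had been irradiated at a lethal dose, 3 weeks after transplantation of female CD45.1 C57BL/6 bone marrow (BMT). CD11b+MHCII+ donor cells were sorted in 4 libraries, of which DM1, DM2 and DMBMT (BMT replicates 1 to 3) were labelled BMT, and DMBMTT was labelled BMT plus T cells. CD45-negative keratinocytes gave 1 library labelled BMT (KCBMT) and 1 labelled BMT plus T cells (KCBMTT), and CD11b+MHCII+ host cells gave 1 library labelled BMT. The design text of the series speaks of CD4 and CD8 Matahari T cells given to the mice without setting libraries apart, so every comparison of treatment here is a comparison of labels. The paper pooled the epidermis of several mice for the donor and keratinocyte sorts, and combined independent sorting and sequencing experiments for donor cells. Its keratinocytes shared their epidermal samples with sorted CD11b+MHCII+ cells. Which library came from which experiment is not given in the sources used here. No label says that libraries came from separate animals, so p-values measure the spread between libraries, which may be technical.

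Immediate early genes are switched on within minutes of a growth factor, cytokine or stress signal, without new protein synthesis. Fos and Jun proteins pair to form AP-1, which binds DNA and drives later genes, Egr1 and Atf3 encode further transcription factors of the first wave, and Dusp1 encodes a phosphatase that switches off the MAP kinases that started it. In the epidermis AP-1 takes part in keratinocyte differentiation, and in monocytes and macrophages it accompanies activation. Warm enzymatic release of cells from tissue is also known to switch these genes on, and by the study's methods the epidermis was split with dispase either warm, within an hour, or cold, overnight. Which library was prepared in which way is not given in the sources used here.

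The libraries held 226 to 8382 donor cells, 2836 and 2590 keratinocytes and 781 host cells. The median depth was 7021.5 to 13387 UMIs (unique molecular identifiers, counted transcripts) per cell in donor libraries, 8895.5 in KCBMT, 8834 in KCBMTT and 4376 in the host library. Median mitochondrial shares were 1.395 to 2.020% in donor libraries, 2.201% in KCBMT and 2.115% in KCBMTT, against 14.043% in the host library. Any 2 libraries shared 0 to 7 cell barcodes, 2 of them between KCBMT and KCBMTT. Levels are given as CP10K, a gene's UMIs per 10000 UMIs of the cell, averaged over the cells of a cluster in a library. Defining markers fitted the annotated names: Cd207, Epcam and Mfge8 together reached 59.9 to 85.6 CP10K in resident monocyte-derived Langerhans cells (mLCs) and at most 1.55 CP10K in Mono, and Krt79 and Krt17 reached 51.6 and 49.5 CP10K in follicular keratinocytes of KCBMT and KCBMTT.

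The first question was how these genes stood in keratinocytes under the 2 treatment labels. Fos, Atf3 and Dusp1 were higher in KCBMTT than in KCBMT in all 5 keratinocyte clusters. Egr1, Junb and the sparse Fosb were also higher in all 5, by less on the mean over clusters, and Jun was not higher on that mean. In differentiated, follicular and KC_Four cells Egr1 differed by more than Dusp1. With 1 library a label the difference has no replicate check and no p-value, and intervals cover counting error only. A log2 ratio was taken within each cluster, on the scale of log2(CP10K + 0.1), and averaged over the 5 clusters with equal weight. Of the 9 genes that passed a filter of a mean of at least 0.1 CP10K, 3 were past 1.5-fold higher and 0 past 1.5-fold lower, where 0.51% and 0.144% of all 7650 genes tested were. Fosb did not pass the filter. At a pseudocount of 1 CP10K (Fos 0.51, Atf3 0.35 and Dusp1 0.25 on the log2 scale) or on means of the deposited ln values, 0 of the 9 were past 1.5-fold, and in KC_Five alone it was also 0.

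**Figure D1:**
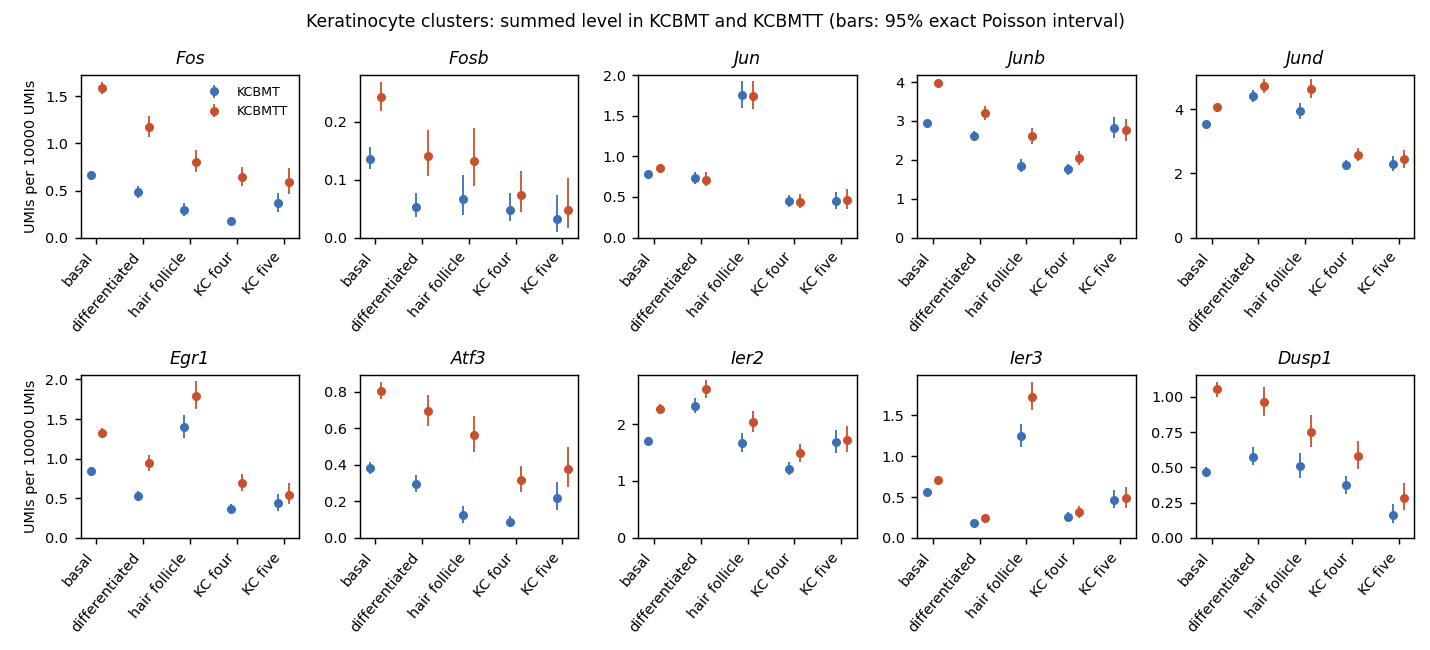
Level of each of the 10 genes in the 5 keratinocyte clusters, as summed UMIs per 10000 summed UMIs (y axis, linear from 0), for KCBMT in blue and KCBMTT in red, with exact 95% Poisson intervals as bars. Fos, Atf3 and Dusp1 lie higher in KCBMTT in every cluster, and Jun differs little between the libraries.

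Fos, the gene that pairs with Jun proteins in AP-1, counted 1438 UMIs in KCBMT (95% Poisson interval 1365 to 1514) and 3278 in KCBMTT (3167 to 3392). Per UMI sequenced this was a ratio of 2.54 (95% interval 2.39 to 2.70), and the mean over clusters was 2.21-fold (1.14 on the log2 scale). In basal keratinocytes Fos stood at 0.684 CP10K in KCBMT and 1.61 in KCBMTT, and in differentiated keratinocytes at 0.513 and 1.21 CP10K. Follicular keratinocytes held 0.320 and 1.04 CP10K, and the clusters KC_Four and KC_Five held 0.171 and 0.659, and 0.382 and 0.614 CP10K. The log2 ratio was thus lowest in KC_Five, at 0.57, and highest in KC_Four, at 1.48, with Fos low in both libraries in KC_Four.

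Atf3, a stress-induced member of the ATF family, counted 816 UMIs (761 to 874) in KCBMT and 1737 (1656 to 1821) in KCBMTT. Its summed ratio was 2.37 (2.18 to 2.58) and its mean over clusters 2.06-fold. Basal cells held 0.378 and 0.758 CP10K, differentiated cells 0.278 and 0.803, follicular cells 0.148 and 0.573, KC_Four 0.0838 and 0.303, and KC_Five 0.230 and 0.385 CP10K of Atf3 in KCBMT and KCBMTT. As for Fos, the smallest log2 ratio was that of KC_Five, at 0.56. Dusp1, the MAP kinase phosphatase, counted 1284 UMIs (1215 to 1356) and 2314 (2221 to 2410), a summed ratio of 2.01 (1.88 to 2.15). Its mean over clusters was 1.51-fold, just past the limit of 1.5-fold, and its log2 ratio ran from 0.37 in KC_Four to 0.99 in basal cells.

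Egr1, a zinc finger factor induced through serum response factor, stood just short of that limit at 1.43-fold. It counted 2080 UMIs (1992 to 2171) in KCBMT and 3011 (2904 to 3121) in KCBMTT, and was higher in all 5 clusters, by 0.16 to 0.75 on the log2 scale. Junb and Jund, Jun family partners that transactivate less strongly than Jun, differed by 1.19-fold and 1.07-fold. Junb counted 7288 and 8682 UMIs and was higher in 5 of 5 clusters by mean CP10K (in KC_Five, at 2.88 and 2.92, not by the summed level), and Jund counted 9733 and 9939 and was higher in 4 of 5. Ier2 and Ier3 were each 1.16-fold and higher in 4 of 5 clusters, with KC_Five the exception in each. Jun itself counted 2214 and 2132 UMIs, was higher in 1 of 5 clusters, basal cells, and had a mean ratio of 0.92-fold, although its summed ratio, which weights the clusters by their UMIs, was 1.07 (1.01 to 1.14). Fosb, the sparse paralog of Fos, counted 269 UMIs (238 to 303) and 475 (433 to 520), with a summed ratio of 1.97 (1.69 to 2.29), and was higher in 5 of 5 clusters. In KC_Five it counted only 5 and 6 UMIs (ratio interval 0.38 to 6.18), and in KC_Four 17 and 18 (0.74 to 3.15). In these clusters its direction lay within counting error.

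Set among all 7650 genes, whose median log2 ratio was -0.01 and of which 95% lay between -0.25 and 0.26, 11 genes lay above Fos and 16 above Atf3. Dusp1 had 38 genes above it and Egr1 43. The 10 genes summed per basal cell had a median of 10.4 CP10K (quartiles 6.67 and 15.8) in KCBMT and 14.3 CP10K (9.19 and 22.2) in KCBMTT, a sum to which Junb, Jund and Ier2 gave most. In follicular cells the median was 12.2 and 13.8 CP10K, with upper quartiles of 18.2 and 23.5. How Fos, Atf3 and Dusp1 were each spread over cells was not measured. In KC_Five the medians were 8.74 and 8.80 CP10K.

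**Figure D2:**
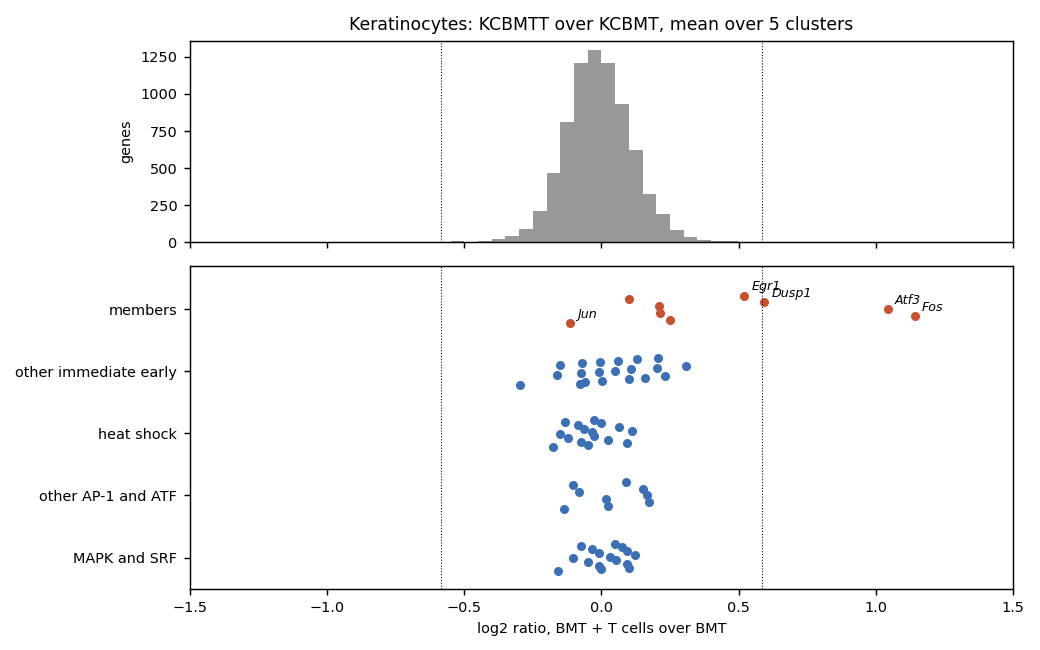
Top, histogram of the log2 ratio of KCBMTT to KCBMT over 7650 genes. Bottom, the log2 ratio (x axis) of each tested gene of 5 lists as points, with dotted lines at 1.5-fold either way. Fos, Atf3 and Dusp1 are the points past the line, and the heat shock genes lie between -0.18 and 0.11.

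Other lists of the same programme had no gene past this limit. Of 37 other immediate early genes, 20 passed the filter, 0 were past 1.5-fold, and their median log2 ratio was 0.03. By summed UMIs, which give basal cells more weight, Socs3 stood at 1.56 (95% interval 1.37 to 1.77), Zfp36 at 1.48 (1.33 to 1.66) and Dusp6 at 1.45 (1.27 to 1.67), so that Socs3 too was past 1.5-fold on that scale. The largest mean log2 ratios among these were those of the cytokine signal inhibitor Socs3 (0.31), the matricellular gene Ccn1 (-0.30), Klf4 (0.23) and the MAP kinase phosphatase gene Dusp6 (0.21). Other AP-1 and ATF family genes (9 of 15 tested, median 0.03) and genes of the MAP kinase and serum response pathway (16 of 24 tested, median 0.02) also had 0 past the limit. Maf (0.17) and Atf5 (0.17) led the first of these lists, and Map2k1 (-0.16) and Mapkapk2 (0.12) the second.

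Heat shock and chaperone genes, which rise in stressed cells and often during warm dissociation, had 0 of 16 tested past 1.5-fold and a median log2 ratio of -0.04. The inducible Hsp70 genes Hspa1a and Hspa1b had log2 ratios of -0.03 and 0.11, with Hspa1a at 0.859 CP10K in KCBMT and 0.816 in KCBMTT and Hspa1b at 0.882 and 0.959. The largest ratios on the list were those of the mitochondrial chaperone genes Hspd1 (-0.18) and Hspe1 (-0.15) and the cochaperone genes Fkbp4 (-0.13) and Cacybp (-0.12). Depth and mitochondrial share lay close in the 2 libraries, at median values of 8053 and 8223.5 UMIs and 2.32 and 2.22% in basal cells. In KC_Four the median values were 15889 and 16877.5 UMIs and 1.73 and 1.48% in KCBMT and KCBMTT. In KC_Five they were 10243.5 and 10987.5 UMIs and 1.83 and 1.57%. The part of tissue dissociation in the difference was not tested, and since each label is 1 library, the label and its preparation cannot be told apart.

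Some of the genes listed as markers of other cells moved with the label. The leukocyte markers Ptprc, Cd74, Lyz2, H2-Aa and Fcer1g summed to 0.424 CP10K in KCBMT and 2.13 in KCBMTT, most of it the MHC class II chain gene Cd74 (0.306 and 1.63) and H2-Aa (0.111 and 0.479), while the pan-leukocyte gene Ptprc counted 0 and 3 UMIs. The interferon-stimulated genes Isg15, Ifit2 and Ifit3 summed to 0.469 and 1.19 CP10K, S100a8 and S100a9 to 0.297 and 0.735, and the T cell list to 0.0165 and 0.0185. No UMI of a leukocyte marker was found in 2618 of 2836 KCBMT cells (92.3%) and 2028 of 2590 KCBMTT cells (78.3%). In those cells alone Fos was 2.08-fold, Atf3 2.10-fold, Egr1 1.45-fold and Dusp1 1.41-fold higher in KCBMTT, so that 2 genes in place of 3 were past 1.5-fold. Whether the UMIs of these markers came from leukocytes or from the keratinocytes themselves was not tested, nor was their part in the Dusp1 difference.

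Promoter sequences of the 3 genes past 1.5-fold and of Jun, which was not, are shown so that they can be set side by side. They are the RefSeq windows on GRCm38.p6, 250 bases before to 50 after the annotated start of the gene, read along its strand: Fos chr12:85473640-85473939 (plus strand), Atf3 chr1:191183284-191183583 (minus strand), Dusp1 chr17:26508423-26508722 (minus strand) and Jun chr4:95052173-95052472 (minus strand). Capitals mark TGACGT or its reverse complement ACGTCA, the core of the cyclic AMP response element, which ATF and CREB proteins bind.
Fos: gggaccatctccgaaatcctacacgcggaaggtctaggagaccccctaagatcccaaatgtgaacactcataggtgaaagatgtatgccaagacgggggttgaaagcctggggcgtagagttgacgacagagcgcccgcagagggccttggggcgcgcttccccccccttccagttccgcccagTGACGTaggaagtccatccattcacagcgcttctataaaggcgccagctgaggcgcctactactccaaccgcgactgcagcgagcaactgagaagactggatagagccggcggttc
Atf3: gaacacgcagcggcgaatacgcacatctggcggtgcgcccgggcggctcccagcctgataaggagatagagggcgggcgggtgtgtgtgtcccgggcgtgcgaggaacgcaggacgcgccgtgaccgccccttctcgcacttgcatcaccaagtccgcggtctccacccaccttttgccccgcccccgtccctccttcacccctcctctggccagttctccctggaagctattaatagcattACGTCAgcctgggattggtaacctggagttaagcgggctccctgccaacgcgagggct
Dusp1: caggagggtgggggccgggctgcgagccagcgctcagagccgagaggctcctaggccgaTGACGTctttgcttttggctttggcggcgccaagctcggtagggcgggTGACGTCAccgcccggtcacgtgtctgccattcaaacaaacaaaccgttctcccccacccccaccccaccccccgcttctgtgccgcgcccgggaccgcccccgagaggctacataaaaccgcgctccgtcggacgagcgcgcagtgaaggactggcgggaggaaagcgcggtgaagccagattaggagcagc
Jun: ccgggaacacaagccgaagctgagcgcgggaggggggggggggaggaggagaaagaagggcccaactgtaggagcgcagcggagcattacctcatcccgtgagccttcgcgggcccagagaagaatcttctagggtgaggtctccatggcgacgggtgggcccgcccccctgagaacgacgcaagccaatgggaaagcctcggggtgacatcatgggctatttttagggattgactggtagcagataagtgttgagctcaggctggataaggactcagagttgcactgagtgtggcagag

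TGACGT, searched on both strands, stood 66 bases before the start of Fos and 8 bases before that of Atf3, there as ACGTCA. Dusp1 held it 191, 143 and 141 bases before its start, the last 2 overlapping as the palindrome TGACGTCA. RefSeq promoters were given for 8 of the 10 genes, not for Ier2 or Egr1, and TGACGT was found in 3 of these 8 and in 7.51% of all 32851 promoters. TGACGTCA was found in Dusp1 and in 1.79% of promoters, TATAAA in Fos and Junb and in 13.6%, and GCGGGGGCG, an Egr1 binding sequence, in Fosb and in 2.91%. The AP-1 sequence TGAGTCA, in 5.2% of promoters, and the CArG box of serum response factor, in 1.63%, were found in 0 of the 8. These motifs were chosen after the values and the promoters had been seen, and a match describes the letters in the window and nothing about binding. Variants of these patterns, in Jun or elsewhere, and sites outside the windows were not counted.

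Within keratinocytes the second question was how the genes stood along differentiation and in the hair follicle, fitted with limma on both libraries, with the library as a block. Clusters were made from the expression of the same cells, so these calls describe the annotation. Against basal cells, differentiated cells held less Ier3, Egr1 and Junb and more Ier2 and Jund. Of the 9 genes tested, 3 were called lower and 2 higher at a Benjamini-Hochberg adjusted p under 0.05, where 19.8% of all 7650 genes were called lower and 10.5% higher.

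Ier3, an early response gene that modulates cell survival, stood at 0.578 and 0.713 CP10K in basal cells of KCBMT and KCBMTT and at 0.193 and 0.244 in differentiated cells. The log2 difference was -1.23 (SE 0.12, limma adjusted p = 1.33e-07), and both differentiated values lay below both basal values. Egr1 fell by 0.55 on the log2 scale (SE 0.12, limma adjusted p = 0.00184) and Junb by 0.27 (SE 0.08, limma adjusted p = 0.0163). For these 2 genes the groups overlapped, since the differentiated cells of KCBMTT held more (Egr1 1.01, Junb 3.31 CP10K) than the basal cells of KCBMT (0.945 and 3.15 CP10K). Ier2, at 1.83 and 2.33 CP10K in basal and 2.37 and 2.70 in differentiated cells, rose by 0.28 on the log2 scale (SE 0.08, limma adjusted p = 0.0134). Jund rose by 0.21 (SE 0.06, limma adjusted p = 0.0113). Fos (-0.37), Jun (-0.21), Atf3 (-0.13) and Dusp1 (0.01) were not called. On the other lists 8 other immediate early genes were called higher and 4 lower of 20, among them Ccn1 (-2.16), Dusp6 (-0.88), the GTPase gene Rhob (0.78) and Cebpb (0.78), and 4 heat shock genes were called higher and 5 lower of 16, among them Dnaja1 (-0.67), Hsp90aa1 (-0.63), Bag3 (-0.62) and Hspb1 (0.52).

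Follicular keratinocytes, marked by Krt79 and Krt17, differed from basal cells in the other sense for 2 of these genes. Jun, Ier3, Egr1 and Jund were called higher (4 of 9, against 15.5% of all genes) and Fos, Atf3 and Junb lower (3 of 9, against 10% of all genes). Jun stood at 0.835 and 0.904 CP10K in basal cells and at 2.08 and 1.94 in follicular cells, a log2 difference of 1.12 (SE 0.11, limma adjusted p = 7.29e-08). Ier3, at 1.30 and 1.77 CP10K in follicular cells, rose by 1.12 (SE 0.12, limma adjusted p = 4.46e-07). For both genes the follicular values lay above the basal values of both libraries. Egr1, at 1.53 and 2.07 CP10K there, rose by 0.57 (SE 0.12, limma adjusted p = 0.00141), and Jund by 0.20 (SE 0.06, limma adjusted p = 0.0200). Fos, at 0.320 and 1.04 CP10K, fell by 0.74 (SE 0.18, limma adjusted p = 0.00796), Atf3 by 0.65 (SE 0.17, limma adjusted p = 0.00727) and Junb by 0.57 (SE 0.08, limma adjusted p = 1.70e-05). Fos and Atf3 overlapped between the clusters, the follicular cells of KCBMTT lying above the basal cells of KCBMT, while the difference held within each library. Jun and Fos therefore differed in opposite directions in the follicle.

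Of the other immediate early genes 9 were called higher in follicular cells and 4 lower of 20, led by the matricellular gene Ccn2 (4.25), Egr2 (3.09), Cebpb (2.53) and the kinase gene Sgk1 (1.88). Heat shock genes were called higher in 5 and lower in 0 of 16 (Hspb1 0.79, Bag3 0.60, Fkbp4 0.58, Hspd1 0.28), and MAP kinase and serum response genes higher in 3 and lower in 0 of 16 (Mapk3 0.84, Mapkapk2 0.69, Map3k8 0.65). Of 9 other AP-1 and ATF genes, Nfe2l2 (0.55) and Fosl2 (0.51) were called higher and Maf (-1.89) lower. Fibroblast markers summed to 6.66 and 5.28 CP10K in the follicular cells of KCBMT and KCBMTT, against 0.0270 and 0.0188 in basal cells, and their part in these differences was not tested.

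In donor cells the question was how the 7 listed genes changed from the monocytes that enter the epidermis (Mono) to the resident mLCs that refill it, and to the Mrc1+ macs (macrophages) that form beside them. Levels came from 9 annotated clusters in 4 libraries, and clusters with under 20 cells in a library were left out. Resident mLCs held less Dusp1, Atf3, Ier3, Fos and Junb than Mono and than Mrc1+ macs, while Egr1 and Fosb were not called on mean levels. Against Mono, 5 of the 7 genes were called lower and 0 higher, where 14.3% and 18.4% of 7267 genes were. Against Mrc1+ macs it was again 5 lower and 0 higher, where 13.6% and 17.9% were. Both comparisons use the same resident mLCs.

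**Figure D3:**
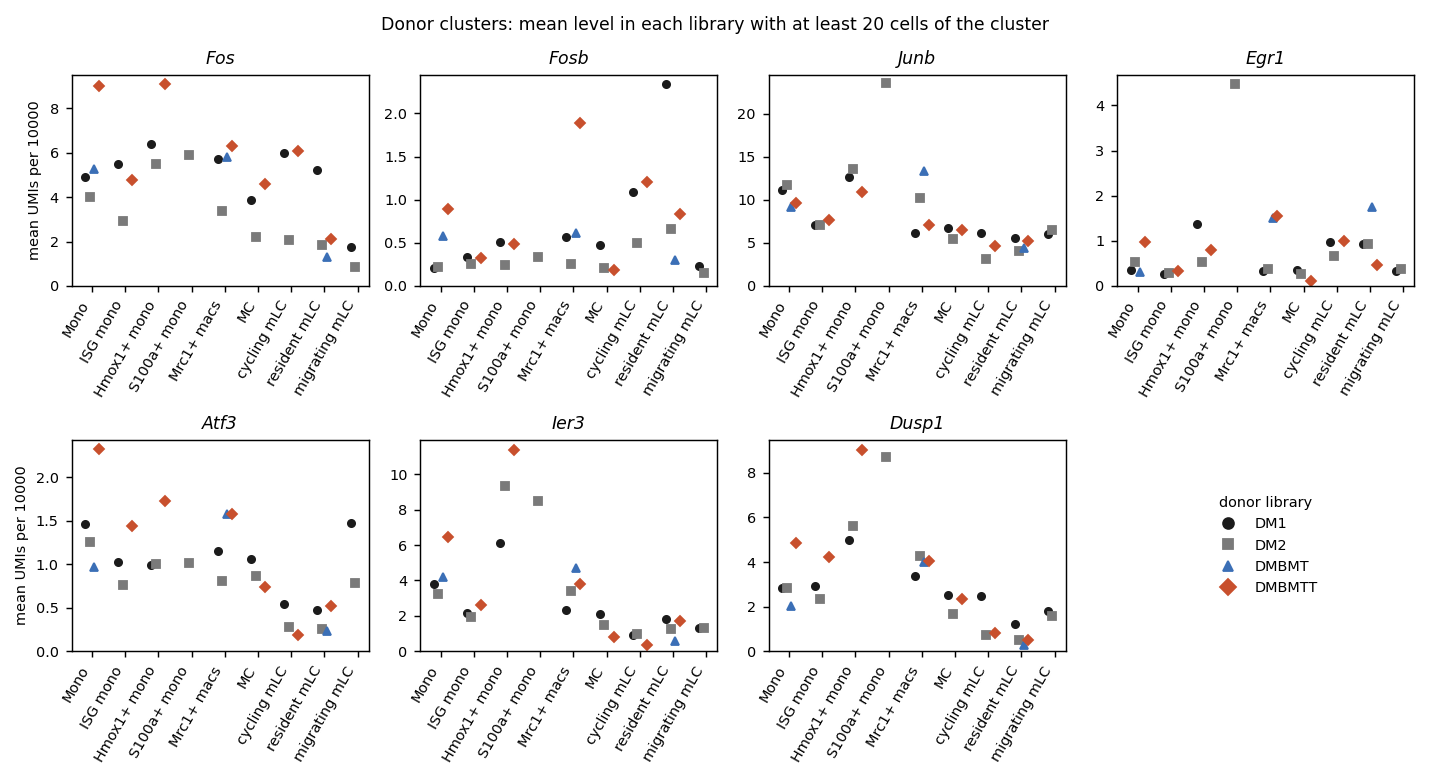
Mean CP10K (y axis) of the 7 genes of the donor table in the 9 annotated clusters, 1 point per library with at least 20 cells (circle DM1, square DM2, triangle DMBMT, diamond DMBMTT). Dusp1 and Ier3 lie lower in resident mLCs than in Mono in every library, and the DM1 point stands highest for Fos and Fosb in resident mLCs.

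Dusp1 stood at 2.82, 2.85, 2.03 and 4.85 CP10K in Mono of DM1, DM2, DMBMT and DMBMTT and at 1.24, 0.518, 0.290 and 0.501 CP10K in resident mLCs. It was lower in 4 of 4 libraries and the groups did not overlap (0.637 ± 0.415 against 3.14 ± 1.20 CP10K, SD, n = 4). The log2 difference was -2.22 (SE 0.30), with a limma adjusted p of 4.51e-06. Against Mrc1+ macs, at 3.36, 4.25, 3.98 and 4.05 CP10K, it was -2.59 (SE 0.30), with a limma adjusted p of 5.90e-07.

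Atf3 stood at 1.46, 1.25, 0.966 and 2.32 CP10K in Mono and at 0.475, 0.257, 0.229 and 0.518 in resident mLCs, again apart in all 4 libraries. It fell by 1.76 on the log2 scale against Mono (SE 0.25, limma adjusted p = 5.74e-06) and by 1.57 against Mrc1+ macs (SE 0.25, limma adjusted p = 2.96e-05). Ier3 stood at 3.81, 3.26, 4.17 and 6.47 CP10K in Mono and at 1.83, 1.24, 0.589 and 1.73 in resident mLCs. Its groups too were apart, with a fall of 1.71 (SE 0.35, limma adjusted p = 6.81e-04) against Mono and of 1.41 (SE 0.35, limma adjusted p = 0.00360) against Mrc1+ macs. The call against Mrc1+ macs was lost without DM2 (limma adjusted p = 0.0545) or without DMBMT (0.0640). Junb was at 11.2, 11.7, 9.18 and 9.69 CP10K in Mono and 5.61, 4.11, 4.36 and 5.22 in resident mLCs. It fell by 1.10 (SE 0.19, limma adjusted p = 8.02e-05) against Mono and by 0.86 (SE 0.19, limma adjusted p = 0.00120) against Mrc1+ macs.

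Fos was less even. It stood at 4.92, 4.0, 5.29 and 9.04 CP10K in Mono and at 5.21, 1.86, 1.33 and 2.11 in resident mLCs, so that the other 3 libraries held less in resident mLCs and DM1 did not. The log2 difference was -1.24 (SE 0.24), with a limma adjusted p of 2.53e-04, and -1.14 (SE 0.24) against Mrc1+ macs, with a limma adjusted p of 6.44e-04. Fosb was lower in Mono than in resident mLCs of DM1 (0.208 and 2.34 CP10K) and DM2 (0.221 and 0.665) but not of DMBMT (0.584 and 0.302) or DMBMTT (0.890 and 0.831). Its log2 difference was 0.85 (SE 0.42, limma adjusted p = 0.128), and 1.38 without DMBMT, where it was called (limma adjusted p = 0.0220). Egr1 likewise went both ways, at 0.343, 0.526, 0.311 and 0.971 CP10K in Mono and 0.937, 0.919, 1.75 and 0.472 in resident mLCs (0.80, SE 0.41, limma adjusted p = 0.148), and was called without DMBMTT (1.37, limma adjusted p = 0.00848). The resident values of DM1 and DMBMT rested on 37 and 29 UMIs. Their summed levels were 0.367 and 0.317, against 0.361 and 0.228 in Mono. On summed UMIs Egr1 differed from Mono by 0.11 (limma voom adjusted p = 0.806). Against Mrc1+ macs Fosb and Egr1 differed by 0.27 and 0.25 (limma adjusted p = 0.665 and 0.686). With limma voom on summed UMIs both were called higher in resident mLCs than in Mrc1+ macs. Fosb differed by 1.06 (limma voom adjusted p = 0.00247) and Egr1 by 1.08 (limma voom adjusted p = 0.0103). Fosb was also called against Mono that way (0.91, limma voom adjusted p = 0.0132).

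Other immediate early genes were also lower in resident mLCs. Of 25 tested, 16 were called lower and 2 higher than in Mono (median log2 difference -1.14, against 0.14 over all genes), led by Klf2 (-2.67), Socs3 (-2.64), the growth arrest gene Gadd45b (-2.59) and Klf4 (-2.42). Of 11 other AP-1 and ATF genes 6 were called lower and 0 higher (Maf -3.04, Batf3 -2.49, Batf2 -2.02, Nfe2l2 -1.97), and of 18 MAP kinase and serum response genes 1 lower and 4 higher (Mapkapk2 -1.33, Rps6ka3 0.99, Map2k3 0.72). Heat shock genes did not follow: 1 of 13 was called, Hspe1, and higher (0.60). Against Mrc1+ macs 16 other immediate early genes were lower and 1 higher of 25 (Sgk1 -3.69, Socs3 -2.38, Egr2 -2.24, Gadd45b -2.21), and 5 heat shock genes were higher and 0 lower of 13.

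Migrating mLCs, the cells marked by Ccr7, Cd83 and Nr4a3, had at least 20 cells only in DM1 and DM2. Atf3 and Dusp1 were called higher in them than in resident mLCs (2 of 7, against 6.81% of genes) and Fosb lower (1 of 7, against 13.3%). Atf3 stood at 1.47 and 0.782 CP10K in migrating mLCs of DM1 and DM2, a log2 difference of 1.41 (SE 0.32, limma adjusted p = 0.00253). Dusp1, at 1.81 and 1.56 CP10K, differed by 1.34 (SE 0.38, limma adjusted p = 0.0151), and Fosb, at 0.232 and 0.145, by -1.60 (SE 0.53, limma adjusted p = 0.0352). Within DM1 and within DM2 all 3 genes differed in these directions. Fos (1.78 and 0.848 CP10K), Egr1 (0.334 and 0.372), Junb (6.05 and 6.55) and Ier3 (1.30 and 1.33) were not called. Without DM2 0 of the 7 genes were called. Without DM1 it was 1. Among the other immediate early genes 11 were higher and 2 lower of 25, led by the nuclear receptor gene Nr4a3 (5.35), which was also a marker of the cluster, Dusp5 (4.03), Gadd45b (3.75) and the NF-kappaB inhibitor gene Nfkbia (2.40). Heat shock genes were lower in 3 and higher in 0 of 13 (Fkbp4 -1.19, Ahsa1 -0.80, Hspd1 -0.68).

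Hmox1+ mono, a monocyte cluster marked by the heme oxygenase gene Hmox1, had 0 of 7 genes called against Mono, where 4.91% of genes were higher and 10.6% lower. Dusp1 stood at 4.97, 5.60 and 9.04 CP10K in DM1, DM2 and DMBMTT, above Mono in each of the 3 (log2 difference 0.91, SE 0.33, limma adjusted p = 0.0657). Ier3 stood at 6.14, 9.36 and 11.4 CP10K, also above Mono in each (0.94, SE 0.38, limma adjusted p = 0.105). In each of these libraries both genes stood higher there than in any other cluster with at least 20 cells, except that Dusp1 was higher in S100a+ mono of DM2. Without DM1, Dusp1 was called (1.03, limma adjusted p = 0.0184). Fos (0.23), Junb (0.28), Egr1 (0.80), Fosb (-0.13) and Atf3 (-0.30) had no adjusted p under 0.05. On the other lists, Dusp5 (2.39), Sgk1 (1.84), Nfkbia (1.13) and Nr4a2 (1.04) led 6 other immediate early genes called higher and 1 lower of 25. S100a+ mono had at least 20 cells only in DM2 (594 cells), where it held 23.6 CP10K of Junb, 8.73 of Dusp1, 8.48 of Ier3, 5.89 of Fos, 4.47 of Egr1, 1.01 of Atf3 and 0.336 of Fosb. Mono of the same library held 11.7 CP10K of Junb and 0.526 of Egr1, both lower.

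**Figure D4:**
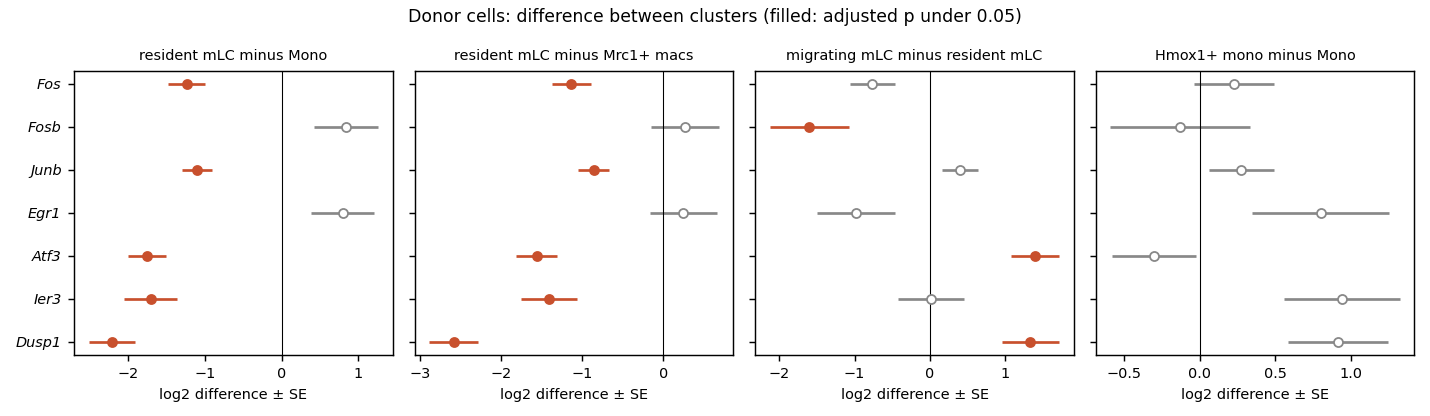
Log2 difference (x axis, on the scale of log2(CP10K + 0.1)) of each donor gene (y axis) in 4 comparisons, with the standard error as bars and filled points at an adjusted p under 0.05. The 5 genes Dusp1, Atf3, Ier3, Fos and Junb are filled and left of 0 for resident mLC against Mono and against Mrc1+ macs.

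The remaining clusters had no common place in the order of levels. MC held the lowest mean Egr1 of the clusters (0.241 CP10K), and cycling mLCs the lowest mean Ier3 (0.746), Atf3 (0.336) and Junb (4.64). ISG monos, the monocytes with interferon-stimulated genes, held 2.32 to 4.21 CP10K of Dusp1 and 2.93 to 5.49 of Fos over DM1, DM2 and DMBMTT, and MC, the cells marked by Ccl17 and Mgl2, held 1.69 to 2.51 and 2.19 to 4.6 CP10K. Cycling mLCs, marked by Top2a and Mki67, held 0.721 to 2.49 CP10K of Dusp1 and 2.05 to 6.08 of Fos. Among the clusters with 2 or more libraries, which leaves out S100a+ mono, mean Dusp1 ran from 0.637 ± 0.415 (SD, n = 4 libraries) in resident mLCs over 1.35 ± 0.991 (n = 3) in cycling mLCs, 1.68 ± 0.175 (n = 2) in migrating mLCs, 2.18 ± 0.436 (n = 3) in MC, 3.14 ± 1.20 (n = 4) in Mono, 3.15 ± 0.967 (n = 3) in ISG monos and 3.91 ± 0.383 (n = 4) in Mrc1+ macs to 6.54 ± 2.19 (n = 3) in Hmox1+ mono. Neighbours in this order overlapped in their libraries, except the last, where every library of Hmox1+ mono lay above every library of Mrc1+ macs.

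For donor cells the treatment labels were compared on the mean of the 3 clusters with at least 20 cells in all 4 libraries, Mono, Mrc1+ macs and resident mLCs. Limma called 0 of 7 genes, and 0% of all 7267 genes in either direction, with 358 genes at an unadjusted p under 0.05. With limma voom on summed UMIs it was also 0, with 440 at an unadjusted p under 0.05. With the pairing of the library names (described below) as a term in the fit, Fosb was among the genes called (1.08). Without DMBMT genes were called too, but DMBMTT then stood alone against DM1 and DM2. That is also the contrast of the name pairs, so label and name pair cannot be told apart there. Fosb had the largest difference, 1.06 on the log2 scale (SE 0.34, unadjusted p = 0.0137, limma adjusted p = 0.930), followed by Atf3 (0.64), Ier3 (0.52), Egr1 (0.42), Fos (0.39), Dusp1 (0.26) and Junb (-0.13). The Fosb value leaned on Mrc1+ macs of DMBMTT, where the mean of 1.89 CP10K came from 28 UMIs and the summed level was 0.298, against 0.229 to 0.348 in the other libraries. On summed UMIs (voom) the Fosb difference was 0.54. The genes with the largest keratinocyte ratios, Fos, Atf3 and Dusp1, had differences of 0.39, 0.64 and 0.26 here that limma did not call. With the name pair as a term, where DMBMTT is set against DMBMT, these were 0.50, 0.70 and 0.62. On summed UMIs (voom), without that term, they were -0.057, 0.21 and -0.33. In Mono alone DMBMTT held the most Fos, Atf3, Dusp1, Ier3, Egr1 and Fosb of the 4 libraries, and in resident mLCs it held the most Atf3, the least Egr1 and neither the most nor the least of the other 5 genes.

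The library names come in forms that pair DMBMT with DMBMTT and DM1 with DM2, a pairing that no label calls an experiment. Between these pairs 0 of 7 genes were called, against 1.18% of genes higher and 1.4% lower. Egr1 came nearest, 0.72 higher on the log2 scale in DMBMT and DMBMTT (SE 0.21, limma adjusted p = 0.0952), and was called without DMBMTT (0.76, limma adjusted p = 0.0389). It stood at 1.5 and 1.55 CP10K in Mrc1+ macs of DMBMT and DMBMTT, and at 0.339 and 0.386 in DM1 and DM2, but on 13 and 33 UMIs in the first pair. By summed level these cells held 0.502 and 0.351, against 0.190 and 0.303 in DM1 and DM2, with Poisson intervals that overlapped between DM2 and both. In resident mLCs the values of the pairs overlapped, and on summed UMIs (voom) the Egr1 difference was 0.10 (limma adjusted p = 0.920).

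The host library holds the cells that survived irradiation in the epidermis and cells sorted with them, in 7 numbered clusters of 1 library, with no replicate and no test. Clusters 1 to 4 (276, 170, 161 and 90 cells) carried Cd207, Epcam and Mfge8 at summed levels of 10.0, 48.3, 15.0 and 30.4 CP10K, cluster 4 also Ccr7, Cd83, Nr4a3 and Fscn1 (24.6 CP10K), cluster 5 (43 cells) basal keratin genes (364 CP10K) and cluster 6 (23 cells) T cell genes (139 CP10K). Fos and Fosb were high in clusters 1 and 3 and low in cluster 4. Fos stood at 5.91, 3.15, 6.44 and 0.893 CP10K in clusters 1 to 4, and Fosb at 4.68, 1.38, 6.05 and 0.833. The donor resident mLCs held 1.33 to 5.21 CP10K of Fos and 0.302 to 2.34 of Fosb, so Fosb in host clusters 1 and 3 lay above every donor library, in a library of another depth and mitochondrial share. Jun, at 4.87, 1.66, 5.69 and 1.69 CP10K, and Egr1, at 2.71, 1.38, 3.72 and 1.61, were also higher in clusters 1 and 3 than in clusters 2 and 4.

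**Figure D5:**
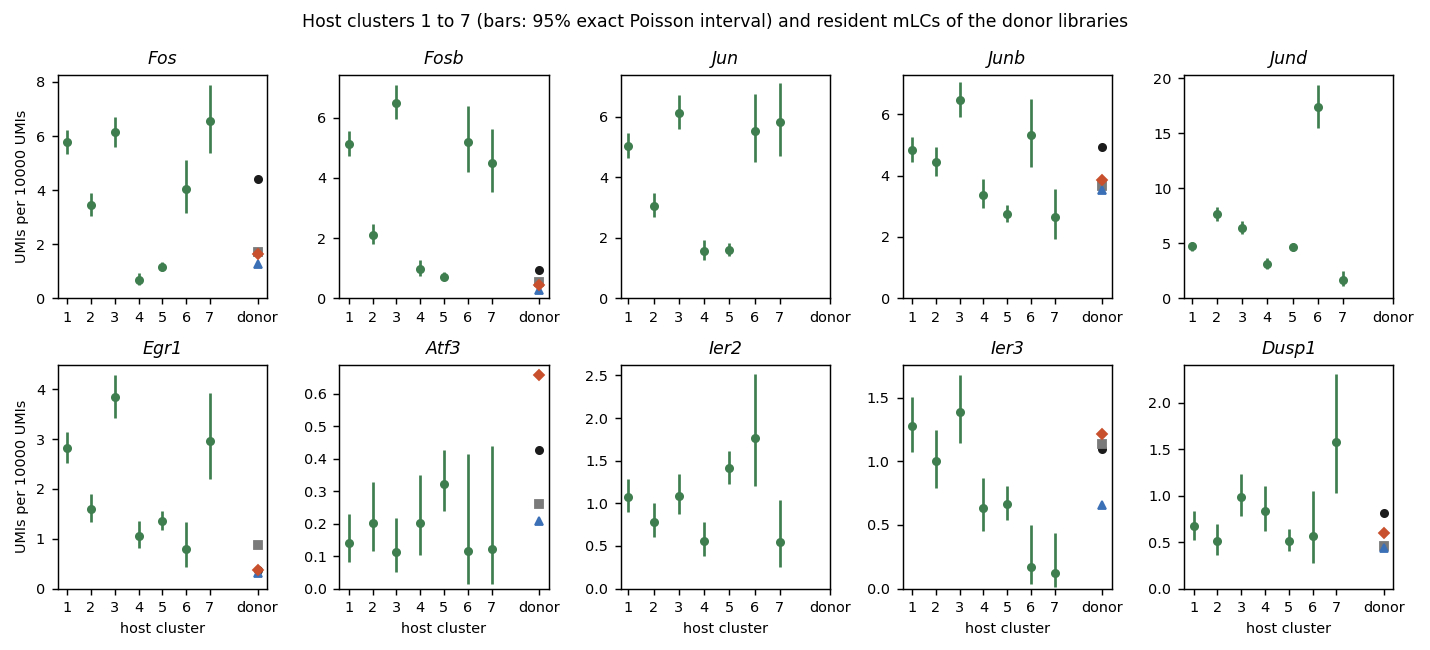
Level (y axis, summed UMIs per 10000 summed UMIs) of the 10 genes in host clusters 1 to 7 with exact 95% Poisson intervals as bars, and at the right the donor resident mLCs of each library (circle DM1, square DM2, triangle DMBMT, diamond DMBMTT). Jun, Jund and Ier2 have no donor points. Fosb is high in host clusters 1, 3 and 6.

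Jund ran otherwise, at 4.34, 8.82, 6.57 and 2.66 CP10K in clusters 1 to 4 and 17.1 in the T cell gene cluster 6. Junb lay between 2.05 and 6.38 CP10K in all 7 clusters. Atf3 was low throughout, at 0.0866 to 0.328 CP10K on 2 to 48 UMIs a cluster, and Dusp1 stood at 0.500 to 0.924 in clusters 1 to 6 and 1.54 in cluster 7. Ier2 ran from 0.503 CP10K in cluster 2 to 2.02 in cluster 6, and Ier3 from 0.0882 in cluster 7 to 1.42 in cluster 1. The host clusters differed in quality: median mitochondrial shares were 15.6, 6.09, 16.9 and 12.9% in clusters 1 to 4, and median depths 3919.5, 1763.5, 4648 and 5007.5 UMIs. The 2 clusters with the most Fos, Fosb and Jun of these 4 were thus those with the highest mitochondrial share, whose part was not tested. Among cells with at least 500 genes and at most 20% mitochondrial UMIs, Fosb stood at 5.99, 2.14, 7.05 and 1.02 CP10K and Fos at 6.34, 4.15, 6.37 and 0.730, in the same order. Jun stood at 4.96, 2.64, 6.48 and 1.76 CP10K in these cells, and Egr1 at 3.04, 1.51, 3.78 and 0.866. For both, clusters 1 and 3 stayed highest, but cluster 2 now lay above cluster 4.

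Across single cells the 2 Fos genes went together. Within a library and cluster the Spearman correlation of Fos and Fosb, on values that share the depth of the cell, ran from 0.114 to 0.413 in 12 donor units, from 0.141 to 0.380 in 6 keratinocyte units and from 0.429 to 0.581 in host clusters 1 to 3. Fos and Dusp1 correlated at 0.139 to 0.502 in the donor units. Fos and Egr1, at -0.169 to 0.331, and Fos and Ier3, at -0.233 to 0.486, took both signs. The summed members correlated with the summed heat shock genes at -0.356 to 0.0364 in donor units, -0.309 to 0.112 in host clusters and -0.103 to 0.00964 in keratinocytes, and with the summed other immediate early genes at 0.332 to 0.771 in donor units. The summed members correlated with mitochondrial share at -0.177 to 0.288 in donor units and -0.0381 to 0.306 in host clusters. In keratinocytes this ran from -0.00783 to 0.207. With UMIs per cell it was -0.412 to 0.119 in donor units, 0.121 to 0.345 in host clusters and -0.267 to -0.0214 in keratinocytes. These are descriptions of sparse counts and carry no p-value.

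The genes with the pattern most like each member were sought by Pearson r over the 27 donor units of library and cluster, which share libraries and depth. For Fos these were Lpin2 (0.787), Dram2 (0.779), Serpinb8 (0.758), Trim8 (0.751) and Gla (0.738). For Egr1 they were Rnf40 (0.717), Fgd3 (0.691), Fam114a1 (0.690), Sh2d3c (0.659) and Mmp9 (0.658), and for Atf3 Slc8b1 (0.882), P2rx4 (0.843), Tmem106a (0.830), Socs3 (0.83) and Ifnar1 (0.828). Of these, Socs3 was also on the list of other immediate early genes. Jun was not in the donor table.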

How the data were processed

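RNA of single cells was measured with a droplet 5′ kit in 7 libraries: 4 of donor CD11b+MHCII+ cells, 2 of keratinocytes and 1 of host cells. The deposited expression values are natural logs (ln) of 1 plus the UMIs of a gene per 10000 in its cell. The authors made them with kallisto, bustools and Seurat, on GRCm38 by the submitters' processing notes. The deposited mitochondrial column is in percent, and the latent time the authors deposited is a fraction from RNA velocity. The study's methods state removal of cells with under 500 genes and over 20% mitochondrial expression and of likely doublets (DoubletFinder). The tables as given still held such cells, up to 208 over 20% (host) and 133 under 500 genes (host) in a library, and all were kept here. Clusters were taken as the authors annotated them.

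After undoing the log, 100% of values were whole UMIs within a tolerance of 0.001. CP10K was averaged within each library and cluster that had 20 cells or more. The genes tested had a mean of 0.1 CP10K or more, and limma 3.58.1 (R 4.3.3, statmod 1.5.0, trend and robust prior) was run on log2(CP10K + 0.1), all clusters in 1 fit, library as a block, Benjamini-Hochberg over all genes, two-sided. For treatment labels and name pairs the unit was the library mean over 3 clusters, with DMBMTT, alone in its group, taken to vary as the other 3 do. Keratinocyte labels and host clusters have no replicate and no test, and their exact Poisson 95% intervals cover counting error only. Of the list genes, up to 4 called genes with the largest difference were named. The values of 1 list gene are not reported here.

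The members, lists and tests were chosen with earlier results of these data known. The alternatives tried were other pseudocounts (0.01 and 1), no filter, means of ln values, limma voom, at least 50 cells, quality filters, 2-cluster fits, centring on the median gene, pooled cells, thinning to 2500 UMIs, and leaving out each donor library. The fit was first tested on simulated data. Other steps ran in Python 3.11.15 (pandas 2.3.3, NumPy 2.4.6, matplotlib 3.10.9, SciPy 1.17.1), and promoters came from RefSeq (GRCm38.p6).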

Additional observations from a re-analysis of the deposited data

Results flagged for a closer look

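Junb was flagged because its difference between the BMT + T cells and BMT labels pointed opposite ways in donor cells and in keratinocytes, a difference of effects that was not tested. In donor cells, on the mean over Mono, Mrc1+ macs and resident mLCs, the log2 difference was -0.13, with DMBMTT at 2.85 on the log2 scale against 2.88 to 3.04 in DM1, DM2 and DMBMT. In keratinocytes Junb was higher in KCBMTT in 5 of 5 clusters, by 0.02 to 0.40 on the log2 scale. Dixon's ratio, the gap between an extreme library and its neighbour as a share of the range, flagged no library in 21 checks. These covered the 7 genes over the 4 donor libraries. With 4 libraries only a very wide gap is flagged, so the checks cannot show that the libraries were alike. For Fos in resident mLCs the ratio was 0.799 without a flag, with DM1 at 5.21 CP10K and DMBMTT next at 2.11.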

How the results depend on the processing

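Of 823 values of single genes under the alternatives, 692 kept their direction and their side of the threshold, 23 lost and 31 gained the call, 36 reversed and 41 moved by more than the spread or counting error. The reversed values were differences that had not been called. For the donor labels, limma voom gave Fos -0.057, Ier3 -0.29 and Dusp1 -0.33, at least 50 cells gave Junb 0.014, and the name pair as a term gave Egr1 -0.090 and 1 called gene, Fosb. Between name pairs, means of ln values gave Fos -0.13, Fosb -0.0090 and Ier3 -0.029, voom gave Fos -0.26, Atf3 -0.13 and Ier3 -0.23, at least 50 cells gave Fos -0.12, quality-filtered cells gave Junb 0.11 and Atf3 -0.0095, and pooled cells gave Junb 0.0047. Leaving out 1 library moved these differences over -0.34 to 0.49 for Fos, -0.030 to 0.93 for Fosb, -0.062 to 0.095 for Junb, -0.085 to 0.49 for Atf3, -0.090 to 0.24 for Ier3 and -0.54 to 0.18 for Dusp1, with 0 to 1 called. For Hmox1+ mono against Mono, Fosb was 0.67 under voom, 0.11 in the 2-cluster fit and -0.53 to 0.16 with 1 library left out. The count called there was 2 at a pseudocount of 1, 3 on ln means, 2 under voom, 2 at 50 cells, 1 in quality-filtered cells, 1 after centring, 2 in the 2-cluster fit and 0 to 1 with 1 library left out. For migrating against resident mLCs it was 6 in the 2-cluster fit, where Ier3 was -0.18, 0 past an absolute log2 difference of 2, and 0 to 4 with 1 library left out, where Ier3 ran from -0.24 to 0.19. Past that limit 1 gene remained against Mono and 1 against Mrc1+ macs. Against Mrc1+ macs, Fosb ran from -0.27 to 0.72 and Egr1 from -0.084 to 0.84 with 1 library left out. In differentiated against basal keratinocytes Dusp1 was -0.0062 at a pseudocount of 1 and Atf3 0.015 on ln means, and the calls were 1 without the filter on low values and 0 past the log2 limit of 2. In follicular against basal cells they were 3 and 0. Of the keratinocyte label ratios, 0 were past 1.5-fold at a pseudocount of 1, on ln means or in KC_Five alone. The causes were not tested. For host clusters 1 to 4, 21 of 40 levels moved beyond counting error in quality-filtered cells, an alternative chosen after the data were seen. Between name pairs the number of all genes called was 188, against 494 at 50 cells, 664 on ln means, 754 without DMBMTT and 0 without the filter. No paired analysis was possible because the groups compared share fewer than 2 replicate numbers (the name pair used as a term is no replicate number), and the keratinocyte fits leave no error to estimate without 1 of their 2 libraries.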

Other observations

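Over all clusters together, along the latent time the authors deposited for donor cells, which orders cells by RNA velocity, Dusp1 had Spearman correlations of -0.119 to -0.461 over the 4 libraries, Atf3 -0.0350 to -0.362, Fos -0.0405 to -0.253 and Ier3 -0.0532 to -0.166, all negative in all 4. Egr1 was at 0.0455 to 0.143, positive in all 4, and Fosb and Junb took both signs. Within Mono, Mrc1+ macs and resident mLCs of single libraries, the sum of the 7 genes had correlations of -0.170 to 0.359, positive in 11 of 12 units. That sum is another measure, and no single gene was set against latent time within clusters. Latent time was made from the same cells, and these are descriptions with no p-value.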
